A study of Mus musculus with 2 samples.

Results

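The heat shock genes Hspa1a, Hspa1b, Hspa8, Hsph1, Dnajb1, Hsp90aa1 and Hspb1 and the cold-inducible RNA-binding genes Cirbp and Rbm3 were examined in liver sections of 1 AEG-1-WT and 1 AEG-1-C75S mouse. These 9 genes were chosen by name, as genes known to follow body temperature and the clock, with earlier results of these data known. Of these, 7 were found among the 19465 genes of the count tables, and Hspa8 and Rbm3 were not analysed here. Both mice were naive females of 8 weeks, without treatment, and littermates of a mating of heterozygotes. The AEG-1-C75S mouse carried a knock-in allele, made with CRISPR/Cas9, in which the cysteine of AEG-1 that is palmitoylated is replaced by serine. The livers were harvested under anaesthesia and fixed in formalin, and 1 section of 5 μm per mouse was assayed with 10x Visium. The assay reads each RNA through a pair of neighbouring probes that are joined, caught on a barcoded spot and counted as unique molecular identifiers (UMIs). Each spot lies under several cells, so its counts are those of a small region.

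Heat shock proteins are chaperones that bind unfolded proteins and help them fold, and their genes are switched on by the transcription factor HSF1 when cells are warmed or otherwise stressed. Chaperones of the HSP70 family work with J-domain proteins, which bring them their substrates, and with exchange factors, which release the bound nucleotide. CIRBP and RBM3 are RNA-binding proteins whose transcripts rise on mild cooling. In the liver, the daily swing of body temperature moves both kinds of transcripts in opposite directions, next to the clock genes themselves.

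The members differ in the sequence before their starts, and the stretches shown here were chosen for a pair of nearly identical genes, for Hspb1, which was higher towards the central vein in both sections, and for the cold-inducible gene. They are the 250 bases before the first listed RefSeq start (GRCm38.p6), read 5′ to 3′ on the strand of the gene. Capitals mark matches to GAANNTTC or TTCNNGAA, which are 2 inverted units of the heat shock element bound by HSF1, and to TCCCCGCC or its reverse complement GGCGGGGA, known as the mild cold response element of Cirbp. Positions are counted back from the start, with -1 as the last base before it.
Hspa1a, chr17:34972157-34972406, minus strand: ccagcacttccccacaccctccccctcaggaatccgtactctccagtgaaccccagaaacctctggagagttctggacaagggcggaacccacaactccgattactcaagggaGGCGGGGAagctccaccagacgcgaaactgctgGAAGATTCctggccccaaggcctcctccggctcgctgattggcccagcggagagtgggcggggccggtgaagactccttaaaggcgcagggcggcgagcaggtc
Hspa1b, chr17:34959239-34959488, minus strand: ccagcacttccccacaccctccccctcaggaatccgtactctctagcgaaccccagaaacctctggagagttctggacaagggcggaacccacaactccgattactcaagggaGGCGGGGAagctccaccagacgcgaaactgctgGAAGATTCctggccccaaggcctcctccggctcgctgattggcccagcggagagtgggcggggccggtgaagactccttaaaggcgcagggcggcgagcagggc
Hspb1, chr5:135887669-135887918, plus strand: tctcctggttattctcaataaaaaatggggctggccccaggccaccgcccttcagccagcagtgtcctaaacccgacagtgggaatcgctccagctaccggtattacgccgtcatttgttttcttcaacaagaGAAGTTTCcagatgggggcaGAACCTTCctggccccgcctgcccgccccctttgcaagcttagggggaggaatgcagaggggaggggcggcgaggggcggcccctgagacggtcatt
Cirbp, chr10:80167589-80167838, plus strand: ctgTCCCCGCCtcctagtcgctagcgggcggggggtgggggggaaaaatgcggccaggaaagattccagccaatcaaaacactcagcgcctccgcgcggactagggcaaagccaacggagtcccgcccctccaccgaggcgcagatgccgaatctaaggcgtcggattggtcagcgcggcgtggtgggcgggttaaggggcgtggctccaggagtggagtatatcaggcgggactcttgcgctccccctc

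The stretches of Hspa1a and Hspa1b were equal at 247 of 250 bases, and both held GAAGATTC at -104 to -97 and GGCGGGGA at -137 to -130. That of Hspb1 held GAAGTTTC at -117 to -110 and GAACCTTC at -97 to -90. The stretch of Cirbp held TCCCCGCC at -247 to -240 and no match to the paired units. Cirbp has a second listed start, and the 250 bases before that one held none of these letters. Before the first listed start of Hsph1, TTCTCGAA lay at -33 to -26, within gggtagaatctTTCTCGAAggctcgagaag (chr5:149636351-149636380, minus strand). After that start, at positions 37 to 49, lay TTCTGGAAAGTTC, a match to 3 alternating units (TTCNNGAANNTTC, or GAANNTTCNNGAA). In the stretch of Dnajb1 before its first start, none of these letters was found, and Hsp90aa1, Hspa8 and Rbm3 are named only. From the same table, 27025 promoters of 300 bases were compared, each at the first listed start of a gene and reaching 50 bases past it. Of these, 15.1% held 2 inverted units on either strand, 0.529% held 3 units and 5.45% held TCCCCGCC or GGCGGGGA. Within the 250 bases before the start alone, as in the stretches shown, these shares were 12.9%, 0.400% and 4.70%. The matches overlap where 3 units contain 2, and a match is a run of letters, not a measured site.

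After filtering, 2309 spots of AEG-1-WT held 42246988 UMIs and 2163 spots of AEG-1-C75S held 41674347, with medians of 16830 and 18808 per spot. The 4 markers of hepatocytes summed to 173701 and 180298 CPM (UMIs scaled to 1000000 of the total of the spots summed) and none of the markers of the 9 cell types looked at was at 0. Mtdh, the gene of AEG-1, stood at 74.4 and 73.3 CPM. Both tables came from the same set of barcodes, of which 1896 carried tissue in both, since the barcodes name positions on a slide and not cells. Each genotype had a single section, so there was no replicate and no test between the genotypes, since spots do not stand for animals, and genotype, animal and section cannot be told apart. Intervals are exact, at 95%, and cover counting error only.

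Over whole sections, Hsph1 was lower in AEG-1-C75S, and Hsp90aa1, Hspa1b, Dnajb1, Hspb1 and Cirbp lay within 1.5-fold of AEG-1-WT. A gene counted as higher or lower when its CPM differed by over 1.5-fold, among the 10389 genes that had 200 or more UMIs in the sum of both sections, which 6 of the 7 measured members reached. Of these 6, 0 were higher and 1, Hsph1, was lower. Among all 10389 genes, 1.66% were higher and 3.19% lower, and the median log2 ratio was -0.05. Bulk counts of a region do not tell fewer cells of a type from less RNA per cell, and CPM values of different genes are not set against each other, since each gene has its own probes.

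**Figure D1:**
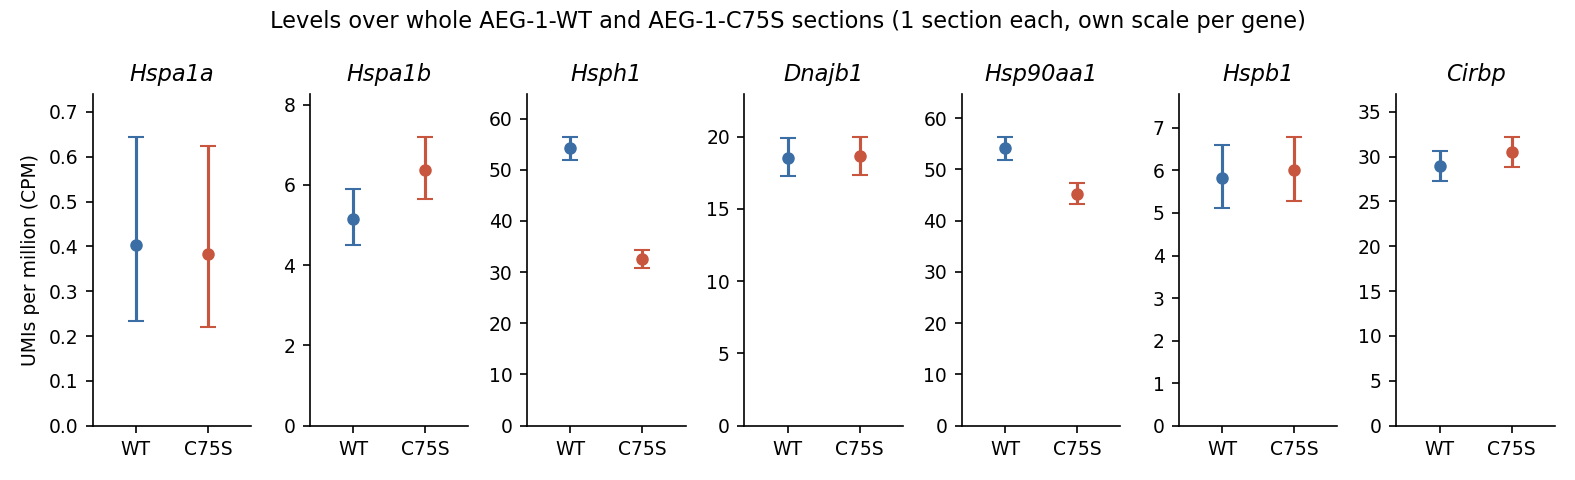
CPM of the 7 measured members over the whole AEG-1-WT (blue) and AEG-1-C75S (red) section, with exact 95% Poisson intervals (bars, counting error only) and a scale from 0 for each gene. Hsph1 stood at 54.2 CPM in AEG-1-WT and at 32.5 CPM in AEG-1-C75S, and the intervals of every member but Hsph1 and Hsp90aa1 overlap.

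Hspa1a and Hspa1b code for the inducible form of HSP70 and lie on the minus strand of chromosome 17 (GRCm38, chr17:34969190-34972156 and chr17:34956436-34959238), with 9951 bases between them. Hspa1a had 17 UMIs in AEG-1-WT against 16 in AEG-1-C75S, too few for the comparison. Its log2 ratio of -0.07 had an interval of -1.15 to 1.01, so a difference of up to about that size was not detectable at this depth. Hspa1b had 218 UMIs in AEG-1-WT (5.16 CPM) and 266 in the AEG-1-C75S section (6.38 CPM). Its log2 ratio was 0.31 (0.04 to 0.57), below the fold that counts as higher. With spots of both sections matched on their total UMIs, that ratio was 0.05. Of the 2918 windows of 50 bases in the Hspa1a transcript, 1716 (58.8%) occur in the Hspa1b transcript, so the split of the UMIs between both genes is uncertain where a probe lies in such a window.

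Dnajb1 and Hsph1 serve the HSP70 cycle, Dnajb1 as a J-domain protein and Hsph1, of the HSP110 family, as an exchange factor. Dnajb1 (chr8:83608193-83612653) had 783 UMIs in AEG-1-WT against 776 in AEG-1-C75S, or 18.5 and 18.6 CPM. The log2 ratio of 0.01 had an interval of -0.14 to 0.15. Hsph1 (chr5:149614287-149636376) had 2288 UMIs in AEG-1-WT against 1354 in AEG-1-C75S. These made 54.2 and 32.5 CPM, a log2 ratio of -0.74 (-0.84 to -0.64) and a 1.67-fold lower level in AEG-1-C75S. Of the compared genes, 179 (1.72%) had a lower ratio than Hsph1. The intervals for Dnajb1 and Hsph1 do not overlap, but they cover counting error only. Of all compared genes, 31.6% had the whole interval below 0 and 17.9% above it. The ratios did not sort by role in the cycle, since the J-domain gene Dnaja1 was at -0.52 and Hspa4, of the HSP110 family, at -0.01.

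Hsp90aa1 codes for the inducible form of cytosolic HSP90, which holds kinases and steroid receptors in a form ready for their ligands. At chr12:110690605-110702728, it had 2286 UMIs in AEG-1-WT against 1887 in AEG-1-C75S. The CPM values were 54.1 and 45.3 and the log2 ratio was -0.26 (-0.35 to -0.17), so the interval lay below 0 but the fold was under 1.5. Hspb1, a small heat shock protein that keeps unfolded proteins from clumping, lies at chr5:135887919-135889563. It had 246 and 250 UMIs, or 5.82 and 6.0 CPM, with a log2 ratio of 0.04 (-0.22 to 0.30).

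Cirbp (chr10:80165985-80172786), the cold-inducible gene measured here, differed little between the sections. It had 1222 UMIs in AEG-1-WT against 1270 in AEG-1-C75S, or 28.9 and 30.5 CPM. The log2 ratio of 0.08 had an interval of -0.04 to 0.19. Among splicing factors and kinases of the kind that follow temperature, little differed as well, with 0 higher and 0 lower of 11 compared and a median log2 ratio of 0.04.

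The other genes of the chaperone network were taken as a list of 54, of which 49 were found in the tables and 44 had 200 or more UMIs. None of the 44 was higher by over 1.5-fold and 1 was lower, Dnajb5, a J-domain protein with 168 UMIs in AEG-1-WT against 104 in AEG-1-C75S (log2 ratio -0.67, -1.04 to -0.31). The median log2 ratio was -0.06, beside -0.05 for all compared genes. Ratios lay below 0 for 30 of the 44, or 68.2%, beside 59.6% of all compared genes. For 18 (40.9%) the whole interval was below 0 and for 8 (18.2%) above it, beside 31.6% and 17.9% of all compared genes. Of the 44, 25 lay below the median of all genes.

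Within the list, none of the compared genes of the HSP90 system or small heat shock genes was lower by over 1.5-fold. Of all compared genes, 59.6% had a ratio and 31.6% a whole interval below 0. In both groups the ratios lay below 0. This held for all 6 compared genes of the HSP90 system, with a median of -0.20 and 4 intervals below 0, although Cdc37, which loads kinases onto HSP90, was at -0.01 and so turned positive when ratios were centred on the median of all genes. Fkbp4, the immunophilin that joins HSP90 on steroid receptors, was at 128.9 CPM in the AEG-1-WT section and 94.5 in the AEG-1-C75S section (log2 ratio -0.45). Ahsa1, which stimulates the ATPase of HSP90, had a log2 ratio of -0.25, and Stip1, which links HSP70 to HSP90, had -0.22. All 3 compared small heat shock genes had intervals below 0, and of these Hspb8 had 200.1 and 151.7 CPM (log2 ratio -0.40), whereas Hspb1 itself did not differ beyond counting error. Cryab, a small heat shock protein first known from the lens, had 504 and 430 UMIs (log2 ratio -0.21).

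In the HSP70 system, the median over 19 compared genes was -0.09. Dnaja1, a J-domain protein, was at 113.9 CPM in the AEG-1-WT section and 79.4 in the AEG-1-C75S section (log2 ratio -0.52, -0.58 to -0.46). Dnaja2, of the same family, had 125.8 and 136.6 CPM (0.12, 0.07 to 0.17). Hspa4, like Hsph1 a member of the HSP110 family, had 47.6 and 47.2 CPM and a log2 ratio of -0.01 (-0.10 to 0.08), and Hspa4l, a further member, had 0.03 (-0.12 to 0.18). Both intervals lie above that of Hsph1. The 6 mitochondrial chaperones had a median of -0.06, with -0.24 for Hspd1 and 0.06 for Hspa9, and the 8 subunits of the TRiC chaperonin a median of 0.01. Hsf2, a relative of HSF1, was at 22.2 and 28.3 CPM (0.36, 0.23 to 0.48).

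**Figure D2:**
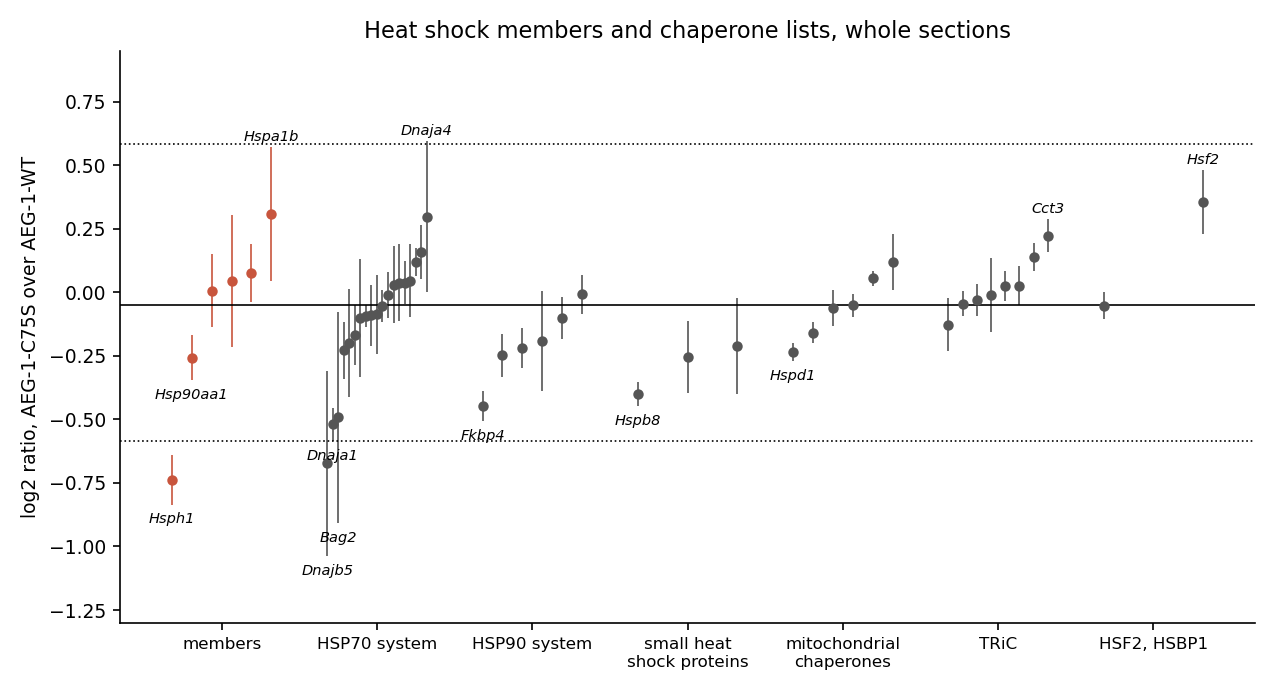
Log2 ratio of CPM in AEG-1-C75S to that in AEG-1-WT for the 6 compared members (red) and the 44 compared genes of the chaperone lists (grey), with exact 95% intervals, the median of all compared genes (solid line, -0.05) and the limits of 1.5-fold (dotted lines). Hsph1 and Dnajb5 lie below the lower limit, and all 6 genes of the HSP90 system and all 3 small heat shock genes lie below 0, of which Cdc37, at -0.01, lies above the solid line.

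Other genes that vary within a day or with handling, in lists chosen with earlier results of these data known, differed between the same sections. Of 9 compared clock genes of the phase opposite to Bmal1, 6 were lower in AEG-1-C75S, with a median log2 ratio of -1.23, and Per2, a clock repressor that heat shock also induces, had 1264 UMIs in AEG-1-WT against 318 in AEG-1-C75S. Of 3 compared clock genes of the Bmal1 phase, 1 was higher, Arntl, the gene of BMAL1 itself, with 5.49 and 17.9 CPM. Of 10 immediate early genes, which respond to stimuli of many kinds, 9 were higher, with a median of 1.39 and with 161 and 1371 UMIs for Fos. The summed markers of red blood cells stood at 611 and 404 CPM, those of connective tissue at 176 and 89.6, those of smooth muscle at 44.5 and 23.2, those of bile ducts at 129 and 96.6 and those of Kupffer cells at 1284 and 1612. The part of these differences in the values of Hsph1 and Hsp90aa1 was not tested. Without the spots rich in markers of bile ducts, connective tissue or smooth muscle, Hsph1 stayed the 1 member that was lower by over 1.5-fold. This left out only the 5% of spots richest in each of these markers. No spots were left out for Kupffer or red blood cell markers, so it does not decide the part of makeup.

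Spot by spot, Hsph1 was detected on fewer spots of the AEG-1-C75S section, a share that falls with a lower total alone. The intervals given here are over spots of 1 section and do not stand for animals. It had a UMI on 1416 of 2309 AEG-1-WT spots (61.3%, exact binomial interval 59.3% to 63.3%) and on 946 of 2163 AEG-1-C75S spots (43.7%, 41.6% to 45.9%). After thinning each spot to 3000 UMIs, with 4 and 3 spots too shallow for it, the shares were 14.8% (13.4% to 16.4%) and 8.80% (7.64% to 10.1%). For Hsp90aa1, the shares were 60.7% and 54.7%, and 14.6% and 13.1% after thinning, with intervals that overlap. Cirbp had a UMI on 39.4% and 43.1% of spots, and on 7.85% and 8.47% after thinning. Dnajb1 was found on 28.3% and 28.9% of spots, Hspb1 on 9.61% and 10.2%, Hspa1b on 9.01% and 11.6%, and Hspa1a on 0.736% and 0.740%.

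Counts per spot were low, and their spread was close to that of Poisson counts. The highest count on 1 spot was 7 UMIs, for Hsp90aa1 in both sections and for Cirbp in the AEG-1-C75S section. The variance of the counts over spots, divided by that of Poisson counts at the same depths, was between 0.96 and 1.1 for every member and section. For Hspa1a, Hspa1b and Hspb1, with few UMIs, this ratio would lie near 1 even with some gathering on spots, so it cannot exclude it. Hsph1 reached 3 or more UMIs on 199 AEG-1-WT spots (8.62%) and on 79 AEG-1-C75S spots (3.65%). With counts close to Poisson, a lower total by itself lowers this share and the share of spots with any UMI. Neither share can therefore show how the difference was spread over spots.

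**Figure D3:**
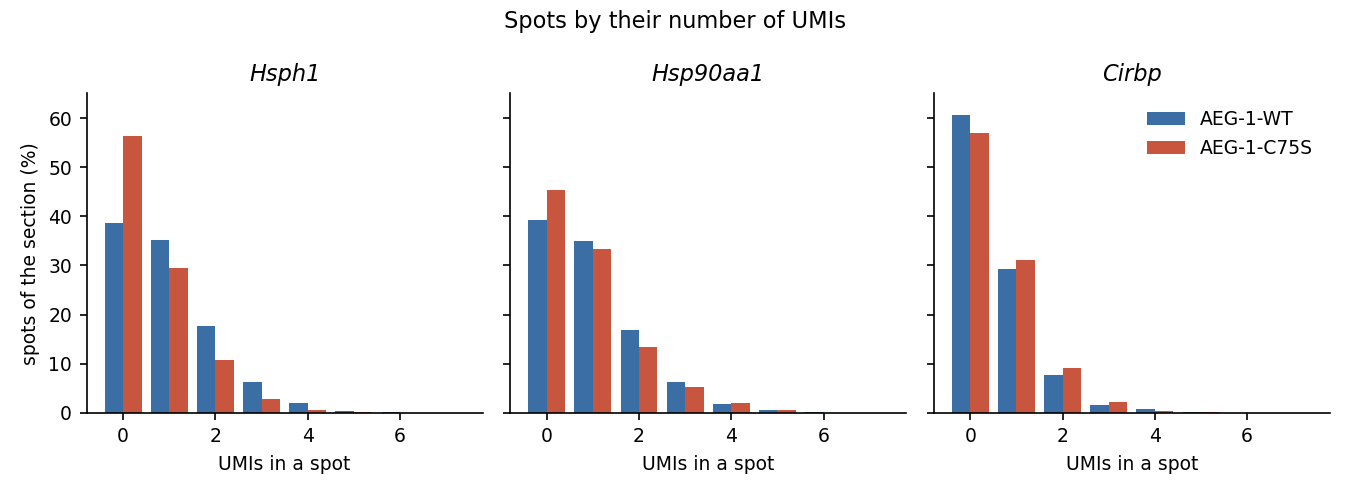
Percent of the spots of the AEG-1-WT (blue, 2309 spots) and AEG-1-C75S (red, 2163 spots) section that hold a given number of UMIs of Hsph1, Hsp90aa1 and Cirbp. Spots without an Hsph1 UMI made 38.7% of the AEG-1-WT section, and the red bar at 0 is higher than the blue one for Hsph1 and Hsp90aa1 but not for Cirbp.

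Along the lobule, from the portal tract to the central vein, Hspa1b and Hspb1 had the largest central over portal ratios among the members with enough UMIs, Hsph1 and Hsp90aa1 had smaller ones, and Cirbp hardly differed. Spots of each section were ranked by the UMIs of Cyp2f2, a gene of portal hepatocytes, over those of Cyp2e1, a gene of central hepatocytes, each plus 1, and divided into 5 bins of equal size. A gene counted as central when its CPM in the most central bin was over 1.2-fold that in the most portal bin in both sections. Of the 6 compared members, 4 were central (Hspa1b, Hsph1, Hsp90aa1 and Hspb1) and 0 portal. Of all compared genes, 13.3% were central and 5.60% portal, with a median log2 ratio of 0.12 in the AEG-1-WT section and 0.09 in the AEG-1-C75S section. Relative to that median, 2 members were central, Hspa1b and Hspb1, and the share of all genes that were so was not computed. The marker sums of bile ducts changed along the same axis, from 262 to 30.8 CPM in AEG-1-WT and from 155 to 37.1 CPM in AEG-1-C75S, whereas those of connective tissue went from 208 to 116 CPM and from 86.3 to 93.7 CPM. Without the spots rich in such markers, the same 4 members were central.

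**Figure D4:**
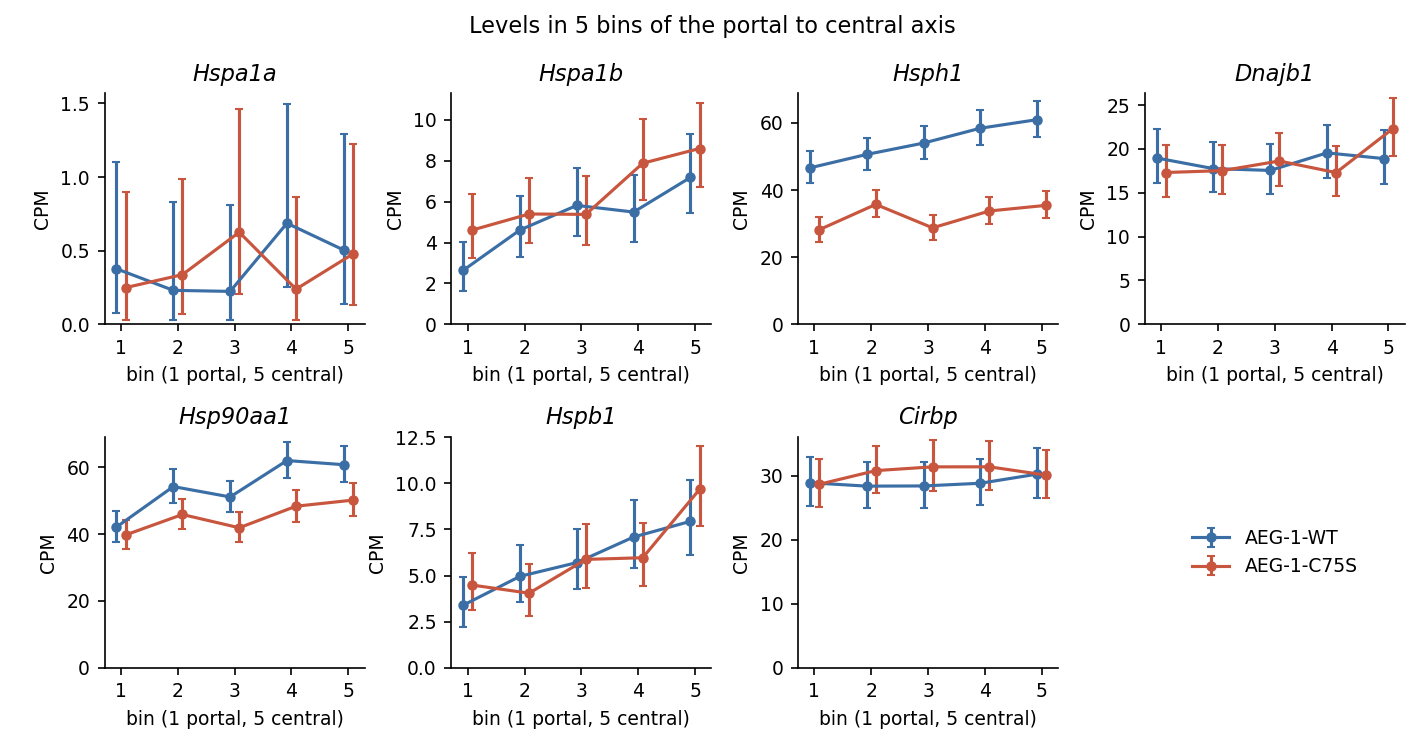
CPM of the 7 measured members in 5 bins of the spots of the AEG-1-WT (blue) and AEG-1-C75S (red) section, from the most portal (1) to the most central (5), with exact 95% Poisson intervals and a scale from 0 for each gene. Hspa1b and Hspb1 are higher in the central than in the portal bin of both sections, Cirbp stays between 28.4 and 31.4 CPM, and Hsph1 of AEG-1-C75S lies below that of AEG-1-WT in every bin.

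Hspb1, from the portal to the central bin, stood at 3.39, 4.96, 5.70, 7.09 and 7.94 CPM in the AEG-1-WT section. In the AEG-1-C75S section, it stood at 4.48, 4.05, 5.88, 5.97 and 9.67 CPM. The log2 ratio of the central over the portal bin was 1.23 (0.55 to 1.93) and 1.11 (0.53 to 1.72), from 27 and 63 UMIs at the 2 ends of the AEG-1-WT section and 36 and 81 of the AEG-1-C75S section. With the outermost 10% of the spots at each end in place of these bins, the log2 ratios were 2.24 and 1.98.

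Hspa1b, in the same order, had 2.64, 4.61, 5.81, 5.49 and 7.18 CPM in the AEG-1-WT section and 4.61, 5.40, 5.38, 7.88 and 8.60 CPM in the AEG-1-C75S section. The log2 ratios were 1.44 (0.70 to 2.24) and 0.90 (0.31 to 1.51). The median depths of the portal and central bins were 15860 and 16078 UMIs per spot in AEG-1-WT and 17810 and 18164 in AEG-1-C75S. Thinning each spot to 3000 UMIs left 7 and 8 UMIs of Hspa1b at the ends of the AEG-1-WT section and 9 and 7 of the AEG-1-C75S section. The log2 ratios were then 0.19 (-1.47 to 1.89) and -0.36 (-2.02 to 1.23), intervals too wide to show either direction. Hspa1a, at 2 to 6 UMIs per bin, could not be ordered.

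Hsph1 had 46.6, 50.6, 54.0, 58.4 and 61.0 CPM from the portal to the central bin of the AEG-1-WT section, higher at each step. In the AEG-1-C75S section it had 28.2, 35.7, 28.8, 33.8 and 35.5 CPM, with no steady order. The central over portal log2 ratios were 0.39 (0.19 to 0.59) and 0.33 (0.08 to 0.59). After thinning they were 0.73 (0.26 to 1.21) and 0.04 (-0.65 to 0.74). The latter came from 37 and 38 UMIs, and its interval still holds 0.33. Hsp90aa1 went from 42.1 to 60.7 CPM in the AEG-1-WT section (0.53, 0.32 to 0.73) and from 39.7 to 50.2 CPM in that of AEG-1-C75S (0.34, 0.12 to 0.55). Dnajb1 was at 19.0 and 18.9 CPM at the ends of the AEG-1-WT section (-0.01, -0.34 to 0.33) and at 17.3 and 22.3 CPM at those of the AEG-1-C75S section (0.37, 0.04 to 0.69), where its highest value was in the central bin alone. Cirbp had log2 ratios of 0.07 in both sections (-0.20 to 0.33, and -0.19 to 0.33). For every member except Hsp90aa1, the intervals of neighbouring bins overlapped in both sections, so such overlap does not set Cirbp and Dnajb1 apart. Those of Hsp90aa1 in the most portal and the next bin of AEG-1-WT were 37.7 to 46.9 and 49.4 to 59.3 CPM. In bins 3 and 4 of AEG-1-WT they were 46.5 to 56.0 and 56.9 to 67.4 CPM. From portal to central, Hsp90aa1 had 42.1, 54.2, 51.1, 62.0 and 60.7 CPM in AEG-1-WT, with no steady order, as in AEG-1-C75S.

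Of the 44 compared genes of the chaperone list, 8 were central (Dnaja1, Dnaja4, Dnajb2, Hspb6, Hspb8, Grpel2, Cct4 and Cct8) and 1, Bag2, was portal, beside 13.3% and 5.60% of all compared genes. Hspb6, a small heat shock protein of muscle, had 101 and 232 UMIs at the portal and central end of the AEG-1-WT section and 95 and 205 of the AEG-1-C75S section (log2 ratios 1.2 and 1.05). Bag2, which inhibits the ubiquitin ligase that works with HSP70, had 34 and 15 UMIs, and 28 and 10 (-1.18 and -1.55). The medians of the list were 0.16 and 0.12, close to those of all compared genes.

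Set side by side bin by bin, Hsph1 was lower in AEG-1-C75S in each of the 5, with levels in AEG-1-WT higher by 1.66, 1.42, 1.88, 1.73 and 1.72 times from portal to central and with every interval of the log2 ratio below 0. The fold was under 1.5 in 1 of the 5. The bins divide the same UMIs that made Hsph1 lower over whole sections, so they are no separate support for it. The share of all compared genes with such intervals in each bin was not computed. For Hsp90aa1, the log2 ratios between the sections, in the same order, were -0.08, -0.24, -0.29, -0.36 and -0.28, of which the first had an interval that holds 0 (-0.31 to 0.14). Whether the differences between sections vary along the lobule was not tested. For Hspa1b, Dnajb1, Hspb1 and Cirbp the interval held 0 in each of the 5 bins.

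Spots rich in markers of a cell type were used to look for members that go with cells other than hepatocytes. For each type, the 5% of spots with the highest share of UMIs in its markers were set against the other spots of the section. Of the 6 compared members, Hspb1 was over 1.5-fold higher in both sections in spots rich in connective tissue markers, as were 6.74% of all compared genes. None of the 6 did so in spots rich in markers of another type. Of all compared genes, those that did made 0.520% for hepatocytes, 6.32% for bile ducts, 3.85% for smooth muscle and 2.75% for Kupffer cells. They made 0.712% for sinusoidal endothelium, 1.14% for stellate cells, 1% for red blood cells and 7.61% for leukocytes. In the connective tissue-rich spots, Hspb1 had 29 of its 246 UMIs in the AEG-1-WT section (13.1 against 5.42 CPM, log2 ratio 1.27, 0.66 to 1.83). In the AEG-1-C75S section it had 16 of 250 there (9.56 against 5.85 CPM, 0.71, -0.12 to 1.44), so the latter interval holds 0. In the AEG-1-WT section, Hspb1 was also higher in spots rich in smooth muscle markers (1.38, 0.77 to 1.94) and leukocyte markers (1.30, 0.67 to 1.88), whereas in AEG-1-C75S these log2 ratios were 0.28 (-0.87 to 1.22) and -0.04 (-1.12 to 0.86). The median depth of the smooth muscle spots was 16574 UMIs in AEG-1-WT against 8047 in AEG-1-C75S. That of the connective tissue spots was 17638 UMIs beside 16784 in the other spots of AEG-1-WT. In AEG-1-C75S it was 11521 beside 19062. With 10% of the spots in place of 5%, none of the 6 compared members passed 1.5-fold in both sections. With 2% of the spots, Hspb1 no longer passed it in both for connective tissue. Set against other spots of the same portal to central bin, Hspb1 passed it in both for bile duct as well as connective tissue markers. The shares of all compared genes under these other settings were not computed.

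Cirbp was higher in spots rich in leukocyte markers in both sections, but passed 1.5-fold in 1 of them. The CPM was 38.8 in such spots and 28.4 in the others in the AEG-1-WT section (log2 ratio 0.45, 0.10 to 0.78), and 46.6 against 29.8 in that of AEG-1-C75S (0.65, 0.30 to 0.97). In spots rich in connective tissue markers, the log2 ratios of Cirbp were 0.43 and 0.37, in those rich in bile duct markers 0.41 and 0.35 and in those rich in Kupffer markers 0.32 and 0.30, and of these 6 intervals those of AEG-1-WT for connective tissue and bile ducts lay above 0 and the other 4 held 0. In hepatocyte-rich spots they were -0.25 and -0.20, with intervals that hold 0. The hepatocyte marker sums fell from the portal to the central bin, so such spots also differ in position. They went from 202372 to 141416 CPM in AEG-1-WT and from 204092 to 148433 CPM in AEG-1-C75S. In these spots of AEG-1-WT, Hspa1b (-2.26, from 2 UMIs), Hspb1 (-1.85, from 3 UMIs) and Hsp90aa1 (-0.47) had intervals below 0. In AEG-1-C75S their intervals held 0. Hsph1 and Dnajb1 were within 1.5-fold in the marker-rich spots of every type in the AEG-1-WT section, with log2 ratios of -0.15 to 0.04 for Hsph1 and of -0.25 to 0.28 for Dnajb1. In the AEG-1-C75S section these ranges were -0.54 to 0.22 and -0.18 to 0.30.

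**Figure D5:**
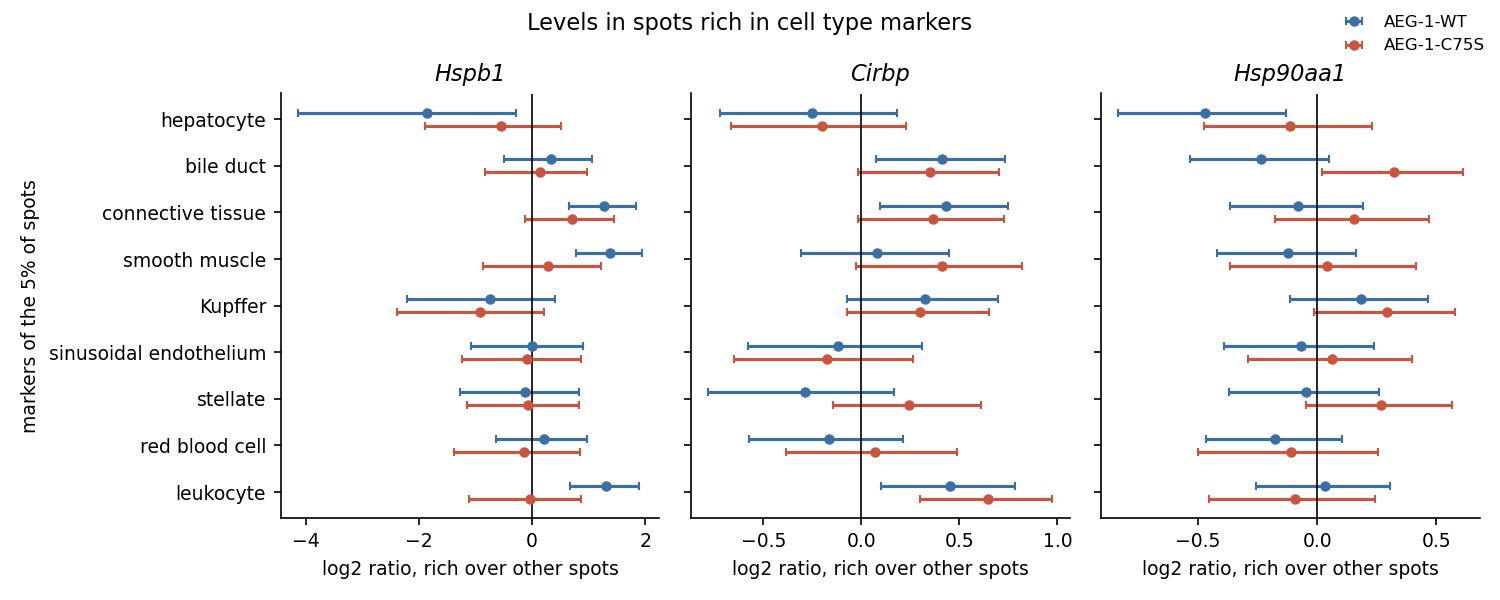
Log2 ratio of the CPM in the 5% of spots richest in the markers of each cell type over the CPM in the other spots, for Hspb1, Cirbp and Hsp90aa1 in the AEG-1-WT (blue) and AEG-1-C75S (red) section, with exact 95% intervals and a line at 0. Cirbp lies above 0 with both intervals in leukocyte-rich spots, and Hspb1 in connective tissue-rich spots with that of the AEG-1-WT section.

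Across spots, the members hardly varied together. After taking out the depth of each spot, Pearson correlations between pairs of members lay between -0.05 and 0.07 in both sections, which in counts this sparse is no finding. For each member, the 3 genes with the most similar pattern over spots were taken from 4353 with at least 1000 UMIs in each section, and their correlations were low. For Hspb1 they were Oat, a central enzyme of ornithine breakdown (r = 0.13 in the AEG-1-WT and 0.11 in the AEG-1-C75S section) and Mup17. For Hspa1b they were Cyp2e1 (0.09 and 0.08), which sets the axis of the bins, Ces3a and Rgn. Hsph1 came with Cyb5a, Adh4 and Oat, and Hsp90aa1 with Rgn, Oat and Cyp27a1. Cirbp came with Spp1, a bile duct marker, Met and H2-Aa, a leukocyte marker of the list used above (0.05 to 0.06 in each section). Dnajb1 came with Gpr146 and Haao, and Hspa1a, with its 17 and 16 UMIs, with Col3a1, Vim and Anxa2. All points of 1 section share its library.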

How the data were processed

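The authors made the deposited count tables from the reads of 2 liver sections, 1 per genotype, with Space Ranger 2.0.1 on mm10 (GRCm38), per the submitters' processing notes. The tables hold raw UMI counts per gene and spot, without normalization, and no column of another sample (0 columns). For the 11 repeated gene symbols, only the earliest entry was read. The filter of the methods was applied, which keeps spots of 100 to 7000 genes and of no more than 50000 UMIs (7 and 4 spots were removed).

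UMIs were summed over spots and scaled to 1000000 (CPM) with numpy 2.4.6, pandas 2.3.3 and scipy 1.17.1 (python 3.11.15). The log2 ratio of a pair of sums has a 95% exact binomial interval, sums have exact Poisson intervals, and both cover counting error only, also because molecules of 1 section share its preparation. TMM factors came from edgeR 4.0.16 in R 4.3.3. The ratios and their intervals were tested on simulated Poisson sums and on a planted gradient over bins. The simulation held no variation between animals, and the other steps were not tested in this way. With 1 section per genotype, fixed folds stood in for a test.

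Named genes were the members, the genes of the lists as given, and, for each member, the 3 genes with the highest correlation of Pearson residuals (theta 100) over spots, by the lower r of the sections. Some genes so named are not reported here. The members and lists were chosen with earlier results of these data known. The alternatives changed the spot filter, weights, scaling, depth, makeup of spots, fold, UMI minimum, bins, axis and size of the marker-rich group. Positions are from GENCODE M21, and sequences from RefSeq (GRCm38.p6), where 6 members matched. Other genes of the lists, and spot coordinates, were not analysed here.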

Additional observations from a re-analysis of the deposited data

How the results depend on the processing

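Between sections, 49 of 49 alternative log2 ratios of single members lay within the interval of the reported value, and that of Hsph1 ranged from -0.78 to -0.68. With a fold of 1.2, 1 member was higher (Hspa1b) and, of the chaperone list, 2 genes were higher (Dnaja4 and Hsf2) and 5 lower (Dnaja1, Dnajb5, Bag2, Fkbp4 and Hspb8). With a fold of 2, 0 members and 0 genes of the list were lower. Of the list, 2 genes were lower with equal weight per spot (Dnajb5 and Bag2), and 0 with at least 1000 UMIs, which leaves Dnajb5 out. The members higher in the central bin in both sections were 4, but 2 with 3 bins in place of 5 (Hspa1b and Hspb1), 2 after thinning to 3000 UMIs (Hsp90aa1 and Hspb1), 2 when centred on the median gene and 2 with a fold of 1.5 (Hspa1b and Hspb1 both times). Of 110 alternative values between bins, 102 lay within the interval, 7 outside it, and 1 lay outside it with the sign of a called value turned, Hspa1b of AEG-1-C75S after thinning (-0.36), where 16 UMIs were left; 2 values for Hspa1a had a bin at 0 UMIs and no ratio. Values of Cirbp, Dnajb1 of AEG-1-WT and Hspa1a, which were not called, also changed sign within their intervals. Compared members over 1.5-fold higher in marker-rich spots, which leave out Hspa1a, were 0 with 10% of the spots and 2 with 2%. These 2 were Hspb1 for bile duct and red blood cell but not connective tissue markers, and Cirbp for connective tissue and leukocyte markers. With a fold of 1.2 they were 3 (Hspa1b, Hspb1 and Cirbp). Against other spots of the same bin, the count was 1, Hspb1, for bile duct and connective tissue markers. The scalings moved the median log2 ratio of all genes between -0.05 and 0.01. The shares of all compared genes were computed for the reported settings only. Counts under another fold or setting therefore have no share beside them and cannot be read against all genes. The causes were not tested. No paired analysis was possible because there was 1 section per genotype.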
